A study of Homo sapiens with 6 samples.

Results

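The 10 genes described here encode the NF-kB subunits (NFKB1, NFKB2, REL, RELA and RELB), proteins that restrain or modify the pathway and are themselves induced by it (NFKBIA, NFKBIE, TNFAIP3 and BIRC3), and the cytokine TNFSF15. They were picked by name out of 16330 genes in the deposited tables, and all 10 were found. The choice was made with the difference between the CPI-613 and Control libraries already known, so the members' values in that comparison are given as a description and support nothing by themselves. HN12 is a line of human head and neck squamous cell carcinoma. Its cells received CPI-613, a lipoate analogue directed against mitochondrial 2-oxoacid dehydrogenases, or the solvent DMSO (Control), for 24 h, and total RNA from 3 libraries per group was sequenced. No genetic change other than that of the line itself is labelled, and the dose is not given in the sources used here.

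NF-kB transcription factors are dimers of 5 related proteins. RELA, REL and RELB carry activation domains, whereas NFKB1 and NFKB2 are made as precursors that are processed to the DNA-binding subunits p50 and p52. In resting cells inhibitory IkB proteins hold the dimers in the cytoplasm, and receptors of the tumour necrosis factor (TNF) family start the kinase cascade that leads to destruction of the inhibitors. Several products of the induced genes, IkB-alpha (NFKBIA), IkB-epsilon (NFKBIE) and A20 (TNFAIP3) among them, then shut the signal off. TNFSF15 encodes TL1A, a TNF family ligand that binds the death-domain receptor DR3 (TNFRSF25) and the soluble decoy DcR3 (TNFRSF6B).

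NF-kB binds kappaB sites, and such sequences were sought around the starts of the member genes. The consensus kappaB site, 10 bases long and searched on both strands, was present in the window from 250 bases before to 50 bases after the start in 6 of 8 member genes with a RefSeq window (GRCh38.p14). It was present in 13.3% of all 27305 genes with such a window. Counted by window, it was present in 58.3% of 12 member windows and in 11.3% of all 35116 windows. The members were picked by name as genes of this pathway, so these shares are not read as a result. RELB and NFKBIE were not searched. The matches are shown because several of these genes are known NF-kB targets; each is written 5′ to 3′ in the direction of transcription, with the match in capitals and overlapping matches run together.
NFKB1, chr4:102501270-102501328, plus strand: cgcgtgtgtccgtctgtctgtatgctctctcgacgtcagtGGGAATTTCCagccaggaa
NFKB2, chr10:102394462-102394490, plus strand: aaacgtcatGGGAATTCCCCcctccgggg
NFKB2, chr10:102394490-102394519, plus strand: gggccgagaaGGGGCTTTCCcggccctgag
NFKB2, chr10:102395519-102395548, plus strand: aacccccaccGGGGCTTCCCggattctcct
NFKB2, chr10:102395674-102395703, plus strand: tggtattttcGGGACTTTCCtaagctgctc
REL, chr2:60881518-60881546, plus strand: gtcagccgcGGGAAATTCCCctcccgcca
NFKBIA, chr14:35404781-35404870, minus strand: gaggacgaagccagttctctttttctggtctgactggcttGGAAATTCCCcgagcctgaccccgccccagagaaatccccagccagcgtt
TNFAIP3, chr6:137867188-137867217, plus strand: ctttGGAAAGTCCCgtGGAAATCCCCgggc
BIRC3, chr11:102317245-102317398, plus strand: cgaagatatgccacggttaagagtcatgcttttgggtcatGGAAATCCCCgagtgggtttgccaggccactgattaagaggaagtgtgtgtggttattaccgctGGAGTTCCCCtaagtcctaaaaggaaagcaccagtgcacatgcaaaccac

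NFKB2 held matches before 2 of its 3 listed starts, and the match nearest to a start began 21 bases before it. Both of these starts lie inside the gene (chr10:102394110-102402529), and the window at its outermost start held no match. In TNFAIP3 a pair of matches began 67 and 55 bases before the listed start, which also lies inside the gene (chr6:137866349-137883312). In NFKBIA the match began 81 bases before the start. Neither window of RELA held these letters, nor did the window of TNFSF15 (chr9:114792481-114792780), which lies before a start inside the gene. The start of the longer TNFSF15 transcript, at the far end of the gene (chr9:114784635-114806039), was not analysed here. A match is a description of the sequence and does not show binding.

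Depth ran from 13458518 to 15486514 counts per CPI-613 library and from 11531949 to 12508548 per Control library. The labels do not say that replicates were separate cultures, and p-values therefore speak only for the variation among these libraries, part of which may be technical. All 8 squamous epithelial markers examined, among them KRT5, KRT14 and TP63, were expressed, with a summed level of 4210 to 10800 CPM (counts scaled to a common library total) in CPI-613 and 7030 to 10000 CPM in Control libraries. KRT5, a basal keratin, had 459, 874 and 1550 CPM in CPI-613 replicates 1 to 3, against 2100, 2020 and 2570 CPM in Control replicates 1 to 3, so that its groups did not overlap; it was called lower in the GC- and length-adjusted fit described below and not in the unadjusted one. PTPRC, the pan-leukocyte marker, had 0 to 1 counts in CPI-613 and 1 to 2 counts in Control libraries. The 4 leukocyte markers present, of 8 listed, summed to 40.3 to 78.5 CPM in CPI-613 and 45.8 to 63.6 CPM in Control libraries, nearly all of it CD68, a lysosomal protein that other cells also make. The 3 fibroblast markers present, of 6, summed to 30 to 38.9 CPM in CPI-613 and 33.1 to 40 CPM in Control libraries, nearly all of it COL1A1. All 5 endothelial markers summed to at most 0.615 CPM in CPI-613 and 2.74 CPM in Control libraries.

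Among the 10 members, TNFSF15 was the one called different between CPI-613 and Control. A gene was called when edgeR's quasi-likelihood test gave a Benjamini-Hochberg adjusted p under 0.05 over all 12655 tested genes; all 10 members were tested. That made 1 of 10 members higher and 0 lower, beside 1.94% of all tested genes higher and 1.23% lower. DESeq2 called 2 of 10 members higher, TNFSF15 and RELB, and 0 lower, beside 3.89% and 3.16% of all tested genes. Before adjustment edgeR put 3 members higher and 0 lower at p below 0.05. The share of all tested genes under that unadjusted threshold is not given. This count and the unadjusted counts below therefore describe the listed genes without a background. NFKB2 and RELB, partners in the non-canonical branch of the pathway, had higher values in every CPI-613 library than in any Control library without being called. REL and BIRC3 had lower means with CPI-613. For both genes CPI-613 replicates 2 and 3 lay below the Control range, while replicate 1 lay above it for REL and inside it for BIRC3. NFKB1 and RELA, which form the classical dimer, and the feedback genes NFKBIA, NFKBIE and TNFAIP3 overlapped between the groups. In bulk RNA, more expressing cells and more RNA per cell cannot be told apart.

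**Figure D1:**
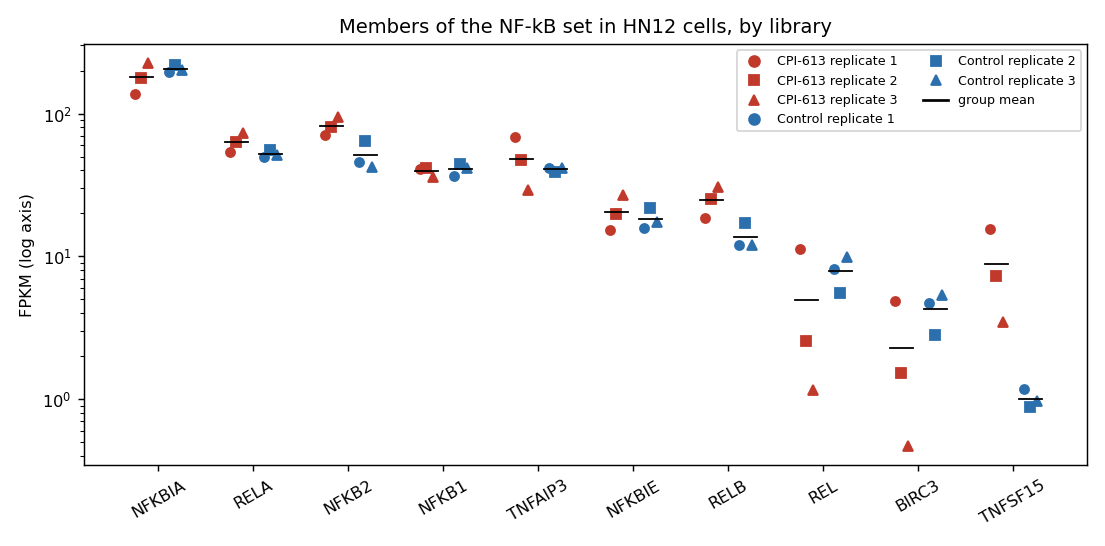
FPKM of the 10 members in each library on a log axis, ordered by their Control mean, with CPI-613 (red) left of Control (blue) and a line at each group mean. NFKBIA stands highest in both groups, and the 3 TNFSF15 points of CPI-613 (3.45 to 15.67 FPKM) lie above the 3 of Control (0.89 to 1.18 FPKM).

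Levels of different genes were compared in FPKM, which divides by transcript length. With CPI-613 the order of mean FPKM was NFKBIA (180 ± 43.9, SD, n = 3 here and below), NFKB2 (81.6 ± 11.8), RELA (63.5 ± 10.1), TNFAIP3 (48.2 ± 19.4), NFKB1 (39.5 ± 3.09), RELB (24.8 ± 5.96), NFKBIE (20.6 ± 5.88), TNFSF15 (8.81 ± 6.25), REL (4.98 ± 5.44) and BIRC3 (2.30 ± 2.31). In Control it was NFKBIA (206 ± 11.9), RELA (52.2 ± 2.98), NFKB2 (51.0 ± 11.9), NFKB1 (40.9 ± 4.17), TNFAIP3 (40.9 ± 1.38), NFKBIE (18.3 ± 3), RELB (13.7 ± 2.92), REL (7.88 ± 2.18), BIRC3 (4.31 ± 1.34) and TNFSF15 (1.01 ± 0.15). In Control the FPKM ranges of neighbours overlapped from RELA through TNFAIP3, and those of NFKBIE and RELB overlapped too, while all other neighbours were apart. With CPI-613 the FPKM ranges of neighbours were apart only between NFKBIA and NFKB2 and between NFKB1 and RELB. TNFSF15 was the lowest member in each Control library and was above REL and BIRC3 in each CPI-613 library.

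TNFSF15 (gene ID 9966) had 95.4, 49.7 and 26.3 CPM in CPI-613 replicates 1 to 3, against 6.67, 5.44 and 5.58 CPM in Control replicates 1 to 3. The lowest CPI-613 library was above the highest Control library, and the CPI-613 libraries differed among themselves by 3.64-fold, the Control libraries by 1.23-fold. TNFSF15 rose with CPI-613 by a log2 fold change of 3.28 (SE 0.49). This size lay between 2.69 and 3.62 when each library was left out in turn, and the call held in 2 of those 6 fits. It ended without CPI-613 replicate 2 (log2 fold change 3.37) and without Control replicate 1 (3.37), 2 (3.23) or 3 (3.24). Of all tested genes, 0.0547% were called without CPI-613 replicate 2, 5.11% without CPI-613 replicate 3, 1.73% without Control replicate 2 and 0% without Control replicate 1 or 3. Without CPI-613 replicate 1 the shares were 3.65% higher and 3.41% lower.

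Nearly all TNFSF15 counts in CPI-613 libraries were assigned to the longer of its transcripts, NM_005118, which spans the gene. NM_005118 had 1338.48, 645.74 and 310.06 estimated counts in CPI-613 replicates 1 to 3, against 32.58, 70.39 and 0 in Control replicates 1 to 3. The other transcript in the table, NM_001204344, had 0, 0 and 28.5 estimated counts in CPI-613 replicates 1 to 3, against 52.49, 0 and 73.06 in Control replicates 1 to 3. In Control the share given to NM_005118 was thus 38.3%, 100% and 0% in replicates 1 to 3, on 70 to 85 counts per library, so the Control split between the transcripts was not determined at this depth. With CPI-613 the share was 100%, 100% and 91.6%.

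**Figure D2:**
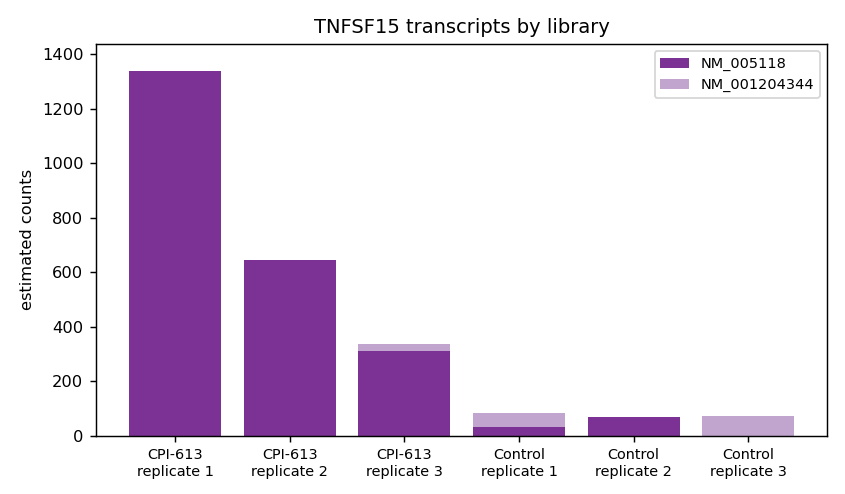
Estimated counts of the TNFSF15 transcripts in each library, stacked, with the CPI-613 libraries on the left and the Control libraries on the right. The longer transcript makes up 310.06 to 1338.48 counts of the CPI-613 bars, while the short Control bars are split differently in each library.

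By a rule set with the lists, the genes whose profile over the 6 libraries was nearest to that of TNFSF15 were sought among 10859 tested genes whose log2 CPM averaged 2 or more. The measure was the mean absolute difference of log2 CPM after centring each gene, whose median over all those genes was 1.53. MAP1B, a microtubule-associated protein, was nearest with a difference of 0.27, with 104, 36.1 and 16.1 CPM in CPI-613 replicates 1 to 3, against 6.51, 4.35 and 5.81 CPM in Control replicates 1 to 3. LIPG, an endothelial-type lipase, followed with 0.37, and INSIG1, a sterol-regulated ER protein, with 0.40. MAP1B was highest in CPI-613 replicate 1 and lowest in replicate 3, as TNFSF15 was, whereas LIPG had 50.3 to 65.3 CPM there, against 8.54 to 9.64 CPM in Control.

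NFKB2 (gene ID 4791, chr10:102394110-102402529) and RELB (gene ID 5971, chr19:45001464-45038192) were the subunits with the largest estimates. NFKB2, the precursor of p52, had 182, 231 and 300 CPM in CPI-613 replicates 1 to 3, against 111, 168 and 107 CPM in Control replicates 1 to 3. RELB, which pairs with p52, had 35.6, 53.8 and 72.9 CPM in CPI-613 replicates 1 to 3, against 21.6, 33.0 and 22.5 CPM in Control replicates 1 to 3. In both genes the lowest CPI-613 library lay just above Control replicate 2, the highest of its group. The log2 fold changes were 0.89 (SE 0.27) for NFKB2 and 1.07 (SE 0.32) for RELB, and neither gene was called. Groups that do not overlap, with CPI-613 above, were seen in 3 of 10 members (NFKB2, RELB and TNFSF15) and in 11.9% of all tested genes; no member lay wholly below, as 9.18% of all tested genes did.

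RELA (chr11:65653601-65663857), the main activating subunit of the canonical pathway, had 115, 153 and 198 CPM in CPI-613 replicates 1 to 3, against 101, 121 and 108 CPM in Control replicates 1 to 3. Its CPI-613 replicate 1 lay inside the Control range and the other 2 above it (log2 fold change 0.50, SE 0.23). NFKB1 (chr4:102501359-102617302), the precursor of p50, had 147, 167 and 162 CPM in CPI-613 replicates 1 to 3, against 122, 164 and 146 CPM in Control replicates 1 to 3. Of the NFKB1 values, CPI-613 replicates 1 and 3 lay inside the Control range and replicate 2 just above it (log2 fold change 0.14, SE 0.18). REL (chr2:60881574-60931612), the c-Rel subunit best known from lymphocytes, had 117, 30.2 and 15.3 CPM in CPI-613 replicates 1 to 3, against 80.1, 59.3 and 100 CPM in Control replicates 1 to 3. CPI-613 replicate 1 was the highest of the 6 REL libraries and the other 2 were the lowest, which gave a log2 fold change of -0.56 with an SE of 0.69.

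For the subunits the share of the leading transcript varied less between libraries than for TNFSF15 in Control. NM_021975 held 83.7% to 87.4% of RELA counts in CPI-613 and 85.2% to 90.9% in Control libraries. NM_006509 held 71.1% to 82.3% of RELB counts in CPI-613 and 66.2% to 72.5% in Control libraries. For NFKB2, NM_002502 was the most abundant transcript with 35.7% to 49.3% in CPI-613 and 39.6% to 51.4% in Control libraries. NFKBIA and NFKBIE each had a single transcript in the table.

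Among the feedback genes, NFKBIA (chr14:35401513-35404749), an inhibitor that NF-kB itself induces, had 174, 251 and 357 CPM in CPI-613 replicates 1 to 3, against 234, 281 and 249 CPM in Control replicates 1 to 3. Its CPI-613 libraries lay on both sides of the Control range (log2 fold change 0.04, SE 0.27). NFKBIE (chr6:44258166-44265551) had 30.7, 44.5 and 67.9 CPM in CPI-613 replicates 1 to 3, against 30.3, 44.4 and 34.1 CPM in Control replicates 1 to 3. CPI-613 replicate 1 lay inside the Control range of NFKBIE, replicate 2 at its upper edge and replicate 3 above it (log2 fold change 0.40, SE 0.33).

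TNFAIP3 (chr6:137866349-137883312), a ubiquitin-editing enzyme, had 282, 220 and 154 CPM in CPI-613 replicates 1 to 3, against 164, 165 and 169 CPM in Control replicates 1 to 3. The Control libraries differed by 1.03-fold and the CPI-613 libraries by 1.83-fold, with replicate 3 below and the other 2 above Control (log2 fold change 0.40, SE 0.24). BIRC3 (chr11:102317484-102339403), the ubiquitin ligase cIAP2, had 25.5, 7.77 and 2.79 CPM in CPI-613 replicates 1 to 3, against 21.4, 13.4 and 27.7 CPM in Control replicates 1 to 3. CPI-613 replicate 1 lay inside the Control range and the other 2 below it (log2 fold change -0.79, SE 0.73).

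The spread within the CPI-613 group went with the base composition of the genes. The 4 members whose longest transcript has a GC content below 50% (BIRC3 34.8%, REL 38.7%, TNFSF15 42.4% and TNFAIP3 49.5%) were all highest in CPI-613 replicate 1 and lowest in replicate 3. Of the 6 members at or above 50%, 5 (NFKBIA 53.1%, RELA 57.1%, NFKBIE 61.0%, NFKB2 62.4% and RELB 65.4%) were highest in replicate 3 and lowest in replicate 1; NFKB1, at 50.1%, differed by 1.13-fold among them. Most tested genes with a known GC content split in the same way: 65.0% of 6658 genes below 50% were highest in replicate 1 and lowest in replicate 3, and 79.1% of 5945 genes at or above 50% were the reverse. In Control, replicate 2 stood apart in a like way and was the highest library for all 6 members at or above 50% and for 69.4% of all such genes.

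**Figure D3:**
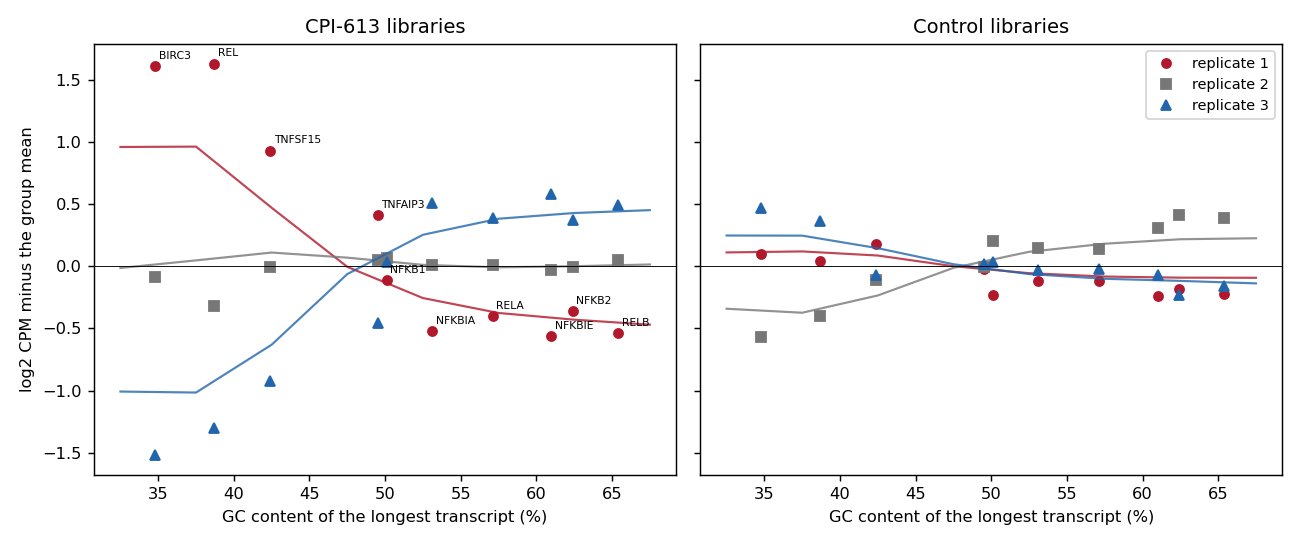
Log2 CPM of each member minus its group mean against the GC content of its longest transcript, for the CPI-613 libraries (left) and the Control libraries (right); lines join medians of all tested genes in GC bins 5 percentage points wide. BIRC3 and REL stand at 1.61 and 1.63 in CPI-613 replicate 1 and at -1.52 and -1.30 in replicate 3, and the lines run in the same directions.

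Subtracting the dependence of each library on GC content and length of the transcript narrowed the CPI-613 group for every member. The ratio of the highest to the lowest CPI-613 library was 2.01 adjusted and 7.69 unadjusted for REL, and 2.01 and 9.16 for BIRC3. For TNFSF15 it was 1.40 adjusted and 3.64 unadjusted, for RELB 1.09 and 2.05, and for NFKB2 1.04 and 1.65. Among the Control libraries TNFSF15 spread more widely with the adjustment, 1.39 against 1.23. TNFAIP3 was the exception in size, at 1.79 adjusted and 1.83 unadjusted, so its spread among CPI-613 libraries was nearly as large with the trend removed. What made the libraries differ along GC content was not tested.

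In the GC- and length-adjusted fit TNFSF15 rose by 3.42 (SE 0.21), RELB by 0.87 (SE 0.14) and NFKB2 by 0.76 (SE 0.14) on the log2 scale, and these 3 of 10 members were called higher and 0 lower. The same fit called 6.67% of all tested genes higher and 5.03% lower. Before adjustment for multiple testing it put 4 members higher and 0 lower at p below 0.05, again without an all-gene share to set beside them. RELA measured 0.36 (SE 0.11), TNFAIP3 0.35 (SE 0.20), NFKBIE 0.21 (SE 0.15), NFKB1 0.07 (SE 0.13), NFKBIA -0.16 (SE 0.12), REL -0.42 (SE 0.27) and BIRC3 -0.59 (SE 0.26), and none of these was called. With each library left out in turn, an alternative chosen after seeing the data, the adjusted fit called TNFSF15 (3.27 to 3.53) and RELB (0.80 to 0.97) in 6 of 6 cases and NFKB2 (0.68 to 0.90) in 3 of 6. RELB lay near the threshold without CPI-613 replicate 2 and without Control replicate 1 or 3. Its edgeR Benjamini-Hochberg adjusted p was 0.0447, 0.0465 and 0.0457 there. In the unadjusted fit RELB and NFKB2 were each called in 1 of 6 omissions. The adjusted fits with a library left out called 4.72% of all tested genes without CPI-613 replicate 2, 11.2% without CPI-613 replicate 3 and 4.85%, 11.1% and 5.04% without Control replicates 1, 2 and 3. Without CPI-613 replicate 1, when 11.7% of genes were called higher and 9.14% lower in the adjusted fit, REL was called lower both unadjusted (-1.81, SE 0.37) and adjusted (-0.83, SE 0.14), and in the adjusted fit so was BIRC3 (-0.94, SE 0.21), while RELA was called higher (0.41, SE 0.12). The median log2 fold change of the 10 members was 0.40 unadjusted and 0.28 adjusted, beside 0.02 and 0.04 over all tested genes.

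**Figure D4:**
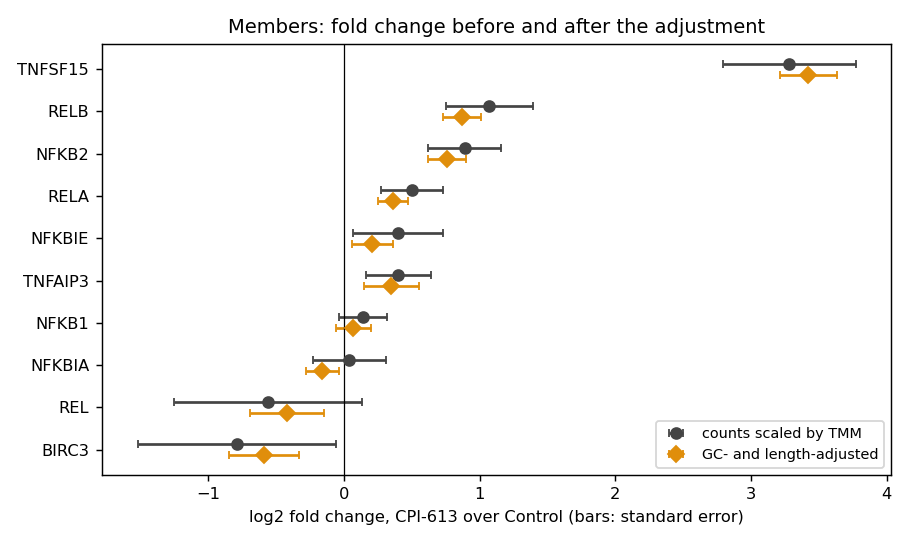
Log2 fold change of each member, CPI-613 over Control, with its standard error, from counts scaled by TMM (circles) and from the GC- and length-adjusted fit (diamonds). The largest rises are those of TNFSF15 (3.28 and 3.42), RELB (1.07 and 0.87) and NFKB2 (0.89 and 0.76), with bars clear of 0. Bars of RELA, TNFAIP3, NFKBIE and BIRC3 also lie clear of 0 in both fits, and none of these genes was called in either. RELB and NFKB2 were called in the adjusted fit only, so a bar clear of 0 is not a call. The bars of REL and BIRC3 shorten with the adjustment.

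Of 141 other genes of the pathway in 6 lists 134 were in the table and 118 were tested; 8 were called higher, 3 lower and 107 not called, beside 1.94% of all tested genes higher and 1.23% lower. None was called without CPI-613 replicate 2, when 0.0547% of all tested genes were called in either direction. None was called without Control replicate 1 or 3 either, when 0% of all tested genes were called. Without CPI-613 replicate 3 there were 12 higher and 10 lower, beside 5.11% of all tested genes in either direction. With the GC and length adjustment 24 were higher and 13 lower, beside 6.67% and 5.03% of all tested genes. Genes named below as called in the adjusted fit alone were named after their values were seen. The median log2 fold change of the 118 was 0.12, beside 0.02 over all tested genes. The 6 lists were written with earlier results of these data known, so their counts and medians are given as a description. DESeq2 called 3.89% of all tested genes higher and 3.16% lower. Of the 5 other IkB proteins edgeR and DESeq2 called 0. Before adjustment, 1 of them was higher and 1 lower in edgeR at p below 0.05. NFKBIB had 21.8, 30.1 and 45.5 CPM in CPI-613 replicates 1 to 3, against 22, 33.9 and 20.3 CPM in Control replicates 1 to 3. NFKBIZ, a nuclear IkB protein that works as a co-activator, had 45.2, 33.9 and 16 CPM in CPI-613, against 26.8, 21.7 and 26.6 CPM in Control libraries. Both ranges overlapped. In the GC- and length-adjusted fit 1 of the 5 was called higher and 1 lower, each with groups that did not overlap. BCL3, a nuclear IkB protein that binds p50 and p52 dimers, was the lower one, with 11.3, 15.6 and 21.1 CPM in CPI-613 replicates 1 to 3, against 26.6, 27.7 and 25.8 CPM in Control replicates 1 to 3 (adjusted-fit log2 fold change -0.97, SE 0.14). NFKBIL1, an IkB-like protein, was the higher one (0.71, SE 0.14).

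Among 27 kinases and adaptors 1 was called higher, 0 lower and 26 not called, with the same counts of 1 and 0 in the GC- and length-adjusted fit, with DESeq2 and at an edgeR p below 0.05 before adjustment for multiple testing. Over all tested genes edgeR called 1.94% higher and 1.23% lower, DESeq2 3.89% and 3.16%, and the adjusted fit 6.67% and 5.03%. TRAF1, an adaptor that binds TNF receptors together with the cIAP proteins, rose to 33.3 ± 1.10 CPM with CPI-613, against 10.8 ± 1.26 CPM in Control (SD, n = 3; log2 fold change 1.62, SE 0.22; edgeR, Benjamini-Hochberg adjusted p = 0.0139). Of 19 tested ubiquitin editors and brakes 1 was called higher and 18 not called. RBCK1 (HOIL-1), a subunit of the linear ubiquitin ligase complex, rose to 222 ± 27.2 CPM with CPI-613, against 73.1 ± 8.92 CPM in Control (1.60, SE 0.19; edgeR, Benjamini-Hochberg adjusted p = 0.0094). Of the 19, 2 were called higher in the GC- and length-adjusted fit, RBCK1 and ZC3H12A, an RNase that degrades inflammatory transcripts (adjusted-fit log2 fold change 0.42, SE 0.10). That fit called 1 lower, TRAFD1, a negative regulator of innate immune signalling, with 41.1, 49.9 and 70.7 CPM in CPI-613, against 81.6, 92.8 and 79.5 CPM in Control libraries (-0.79, SE 0.12).

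Of the 10 other tested TNF family ligands 0 were called higher and 1 lower by edgeR, with 1 higher and 2 lower before adjustment at p below 0.05. DESeq2 and the GC- and length-adjusted fit each called 0 higher and 2 lower. For these ligands and the receptors below, the all-gene shares were 1.94% higher and 1.23% lower with edgeR. They were 3.89% and 3.16% with DESeq2, and 6.67% and 5.03% in the adjusted fit. TNFSF10 (TRAIL), which can trigger apoptosis, fell to 1.94 ± 0.329 CPM with CPI-613, against 19.1 ± 9.32 CPM in Control (log2 fold change -3.29, SE 0.48; edgeR, Benjamini-Hochberg adjusted p = 0.0165). CD70, the ligand of CD27, had 2.07, 3.77 and 6.51 CPM in CPI-613 replicates 1 to 3, against 14, 10.6 and 12.5 CPM in Control replicates 1 to 3, and was called lower in the adjusted fit (-1.87, SE 0.25) and not in the unadjusted one (-1.59, SE 0.42). Of 20 tested receptors of the family 1 was called higher and 19 not called by edgeR, 2 were higher and 0 lower with DESeq2, and 3 were higher and 2 lower in the GC- and length-adjusted fit. TNFRSF10B (DR5), a TRAIL receptor, rose to 409 ± 27.7 CPM, against 192 ± 23.4 CPM in Control (1.09, SE 0.17; edgeR, Benjamini-Hochberg adjusted p = 0.0232). The other adjusted-fit calls were TNFRSF12A, the TWEAK receptor (log2 fold change 1.08, SE 0.22), and EDA2R, a receptor of ectodysplasin (1.49, SE 0.32), both higher, and CD40 (-1.94, SE 0.39) and NGFR (-0.99, SE 0.17), both lower. CD40 was low in every library, at 0.357 to 1.24 CPM in CPI-613 and 2.02 to 3.06 CPM in Control. The receptors of TNFSF15 were both present. TNFRSF25 had 50.1, 50 and 51.8 CPM in CPI-613 replicates 1 to 3, against 32.6, 38.4 and 32.1 CPM in Control replicates 1 to 3, without overlap and without a call (0.56, SE 0.19; edgeR, Benjamini-Hochberg adjusted p = 0.215). With the GC and length adjustment its CPI-613 libraries spread more, 1.94-fold against 1.04-fold, and its groups overlapped. The adjusted log2 CPM were 6.07, 5.57 and 5.12 in CPI-613 replicates 1 to 3, against 5.20, 5.13 and 5.23 in Control replicates 1 to 3. TNFRSF25 was not called in the adjusted fit either (0.45, SE 0.23). The decoy TNFRSF6B had 12.1, 12 and 19.2 CPM in CPI-613, against 13.2, 15.1 and 13.5 CPM in Control libraries, and its groups overlapped (0.05, SE 0.28).

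Known NF-kB target genes went both ways. Of 37 tested targets 5 rose, 2 fell and 30 were not called, beside 1.94% of all tested genes higher and 1.23% lower. In the GC- and length-adjusted fit 17 were higher and 7 lower, beside 6.67% and 5.03% of all tested genes. Their median log2 fold change was 0.59, beside 0.02 over all tested genes. The list of targets was written with earlier results of these data known. Its counts and median are therefore a description and support nothing by themselves. PLK3, a stress-responsive kinase, rose to 64.6 ± 12.5 CPM with CPI-613, against 16.8 ± 7.73 CPM in Control (1.94, SE 0.36; edgeR, Benjamini-Hochberg adjusted p = 0.0361), and IER3, an early response gene, to 933 ± 283 CPM, against 276 ± 30.9 CPM (1.76, SE 0.26; edgeR, Benjamini-Hochberg adjusted p = 0.0173). The neutrophil chemokines CXCL2 and CXCL3, close paralogs whose shared reads may be split uncertainly, and the cytokine subunit IL23A made up the other called rises and are named after their values were seen; CXCL2, for example, had 88.3 ± 8.77 CPM with CPI-613, against 26.9 ± 8.48 CPM in Control. CCL2, a monocyte chemokine, fell to 0.176 ± 0.119 CPM, against 4.91 ± 0.685 CPM in Control (-4.73, SE 0.45; edgeR, Benjamini-Hochberg adjusted p = 0.00719). The size of this fall rests on 2, 4 and 1 CCL2 counts in CPI-613 replicates 1 to 3, against 68, 53 and 69 in Control replicates 1 to 3. CXCL10, which interferon also induces, had 2, 0 and 0 counts in CPI-613 replicates 1 to 3, against 34, 15 and 49 counts in Control replicates 1 to 3, and was called lower.

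**Figure D5:**
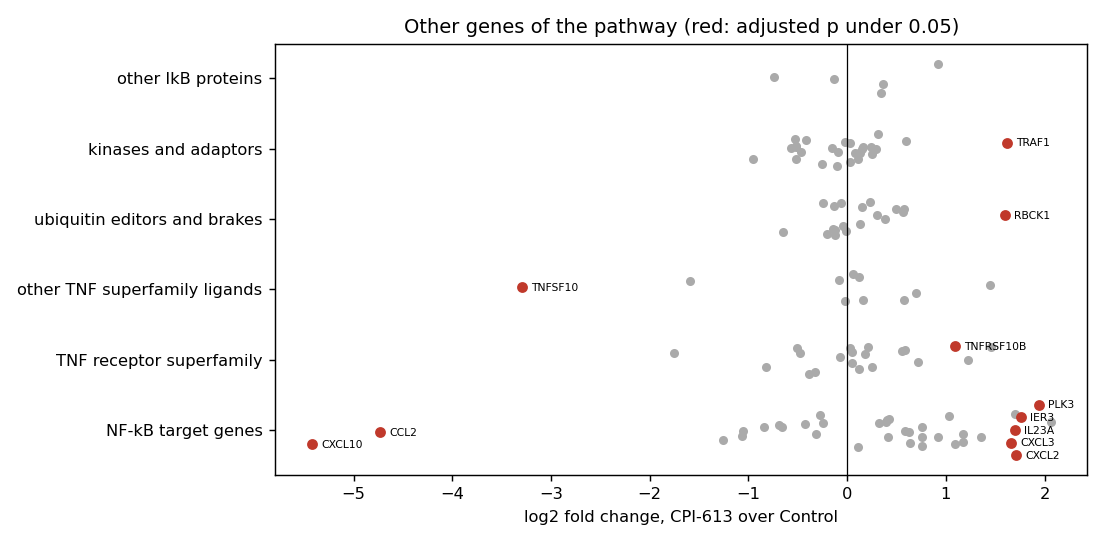
Log2 fold change, CPI-613 over Control, of 118 tested pathway genes other than the members, by list; points are spread vertically for legibility and called genes are red and named. The called genes are 8 on the right of 0 and 3 on the left, 7 of the 11 in the list of target genes. The fitted value of CXCL10 rests on 2 CPI-613 counts, and that of CCL2 on 2, 4 and 1 counts in CPI-613 replicates 1 to 3.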

How the data were processed

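The 6 HN12 libraries (3 CPI-613, 3 Control) were built from total RNA with a NEBNext kit, per the labels' protocols. CASAVA, STAR 2.5, HTSeq, edgeR 3.16.5, DESeq2 and hg38 are named in the submitters' processing notes without roles; the sources used here do not give strand setting or annotation. Estimated counts by RefSeq transcript make up a first table deposited by the authors. A second one holds gene values taken as FPKM made by the authors, since over 1430 genes with a single transcript the value per count followed the inverse library total within 0.49%. In 27 transcripts a CPI-613 replicate 1 cell holds a date; these were left out and none belongs to a listed gene.

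Counts were summed per gene and rounded; the 53 genes without a symbol (0.016% of counts) were left out. edgeR 4.0.16 was used with filterByExpr (minimum count 10, total 15), TMM and a two-sided quasi-likelihood test on group; the SE is the fold change over the square root of F. CPM use TMM-scaled library sizes. The GC- and length-adjusted fit subtracts each library's spline trend (5 degrees of freedom each) of log2 CPM on both properties of the longest GENCODE 29 transcript, known for 99.59% of tested genes. The trend is removed whether it comes from the library or from treatment. The longest transcript was not always the most abundant one. For NFKB2 the longest, NM_001288724, held 0.8% of the gene's counts over all libraries, and for REL the longest, NM_002908, held 39.4%. Both fits were tested on simulated counts. Alternatives were other scalings and filters, DESeq2 1.42.0, limma 3.58.1 (voom, and log2 FPKM), a replicate block and leaving out libraries. Deviations of same-numbered CPI-613 and Control libraries correlated at 0.46, -0.10 and -0.61, so the numbers are not shown to pair them. These correlations cannot exclude a pairing.

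The members and all lists were chosen with earlier results of these data known. Named genes were the members, TNFRSF25, TNFRSF6B and the squamous markers, up to 4 called genes per list by size of change or the 2 most abundant where none was called, and the 3 genes nearest to TNFSF15. Sequences are from RefSeq (GRCh38.p14). Stretches printed around a match were cut short where an exon overlapped them. In REL, NFKB2 and TNFAIP3 a match itself overlapped a GENCODE 29 exon of the gene, and stretches of 29 or 30 bases were printed.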

Additional observations from a re-analysis of the deposited data

How the results depend on the processing

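Direction was kept in all 24 alternatives by TNFSF15 (2.08 to 3.62 on the log2 scale), RELB (0.80 to 1.31), NFKB2 (0.67 to 1.10), RELA (0.27 to 0.68), TNFAIP3 (0.11 to 0.60), NFKBIE (0.06 to 0.64), REL (-1.81 to -0.11) and BIRC3 (-1.97 to -0.32). NFKB1 (-0.05 to 0.23) and NFKBIA (-0.25 to 0.26), never called, changed sign. TNFSF15 was called in 19 of the 24; besides the omissions of libraries given above, it was not called with limma on log2(FPKM + 1), at 2.08.

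Members called higher, 1 as reported, numbered 2 with DESeq2, 3 with the GC and length offset, 3 with that offset and the replicate block, 0 at an adjusted p of 0.01 and 0 with limma on log2(FPKM + 1). All-gene shares for DESeq2, the offset and the omissions of libraries are given above. For the replicate block, limma and the adjusted p of 0.01 none is given. Counts in this paragraph can move with the calls over all genes and are not read as changes particular to the members or lists. Leaving out 1 library gave 0 to 3, or 2 to 4 with the offset (an alternative chosen after seeing the data). Members called lower, 0 as reported, numbered 0 to 1 without 1 library and 0 to 2 with the offset as well; the value of 2 was without CPI-613 replicate 1. Other pathway genes called higher, 8 as reported, numbered 14 with DESeq2, 24 with the offset, 18 with the offset and the replicate block, 2 with the replicate block alone, 1 at an adjusted p of 0.01, 0 to 12 without 1 library and 10 to 29 without 1 library and with the offset. Those called lower, 3 as reported, numbered 9 with DESeq2, 13 with the offset, 12 with the offset and the replicate block, 8 when scaled by library size only, 8 with limma on log2(FPKM + 0.1), 10 with log2(FPKM + 1), 1 at an adjusted p of 0.01, 0 to 10 without 1 library and 9 to 16 with the offset as well. The replicate numbers are not shown to pair the libraries (CPI-613 replicate 1 correlated best with Control replicate 3, at 0.60); with the replicate block alone 1 member was called higher. Library size scaling put the all-gene median log2 fold change at -0.17, against 0.02 with TMM, and the pathway split at 9 higher and 8 lower, against 8 and 3. Over all tested genes it called 229 higher and 258 lower, against 245 and 156 with TMM. The cause of these shifts was not tested.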
